A study of Homo sapiens with 20 samples.

Results

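BRG1 peaks kept from 0 to 30 min are the BRG1 binding sites that were listed both in unstimulated T47D cells and 30 min after the progestin R5020 was added. T47D, an established line from a human breast carcinoma of luminal type, expresses the oestrogen and progesterone receptors. The members were chosen by the deposited peak positions alone, so positions, widths and scores are described without a test. A 30 min peak was counted as kept when it overlapped a 0 min peak by at least 1 bp, which held for 684 of 6180 peaks (11.1%). These 684 peaks overlapped 668 of the 2288 peaks of the 0 min list (29.2%), in 700 pairs. The remaining 5496 peaks were in the 30 min list only, and 1620 were in the 0 min list only.

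The peak lists came from chromatin immunoprecipitation followed by sequencing (ChIP-seq) of BRG1 in cells given no siRNA, with 1 library at 0 min and 1 at 30 min of 10 nM R5020. Gene expression was measured by RNA-seq at 0 h and after 6 h of 10 nM R5020 in cells transfected with si-control, si-BRG1, si-CBX3 or si-FOXA1, each siRNA named for its target, with 2 libraries in each of the 8 groups. Per the labels, cells were held in charcoal-stripped serum and then without serum before the hormone was given, and for si-CBX3 0 h replicate 1 no such protocol is given. Cells that received no siRNA were also sequenced, with 1 RNA library at 0 h and 1 at 6 h. Nothing in the labels says whether replicates are separate cultures, so p-values measure the spread between these libraries, which may be technical. All groups are the T47D line with no change of genotype, and knockdown lowers but does not remove a target.

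BRG1, encoded by SMARCA4, is an ATPase of the SWI/SNF complexes, which slide or evict nucleosomes and can open or close regulatory DNA. The progesterone receptor is a ligand-bound transcription factor that binds chromatin within minutes of hormone and recruits remodellers and co-regulators, and in luminal breast cells it can raise some genes and repress others. FOXA1 is a pioneer factor that binds nucleosomal DNA, and CBX3 (HP1 gamma) is a chromatin protein that reads methylated histone H3 and often accompanies repression. The series title names progestin-dependent gene repression through BRG1, so both rises and falls of the genes beside kept peaks were of interest.

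The series as a whole held these facts that touch the results. Library totals were 50017255 to 74374857 fragments. Each siRNA lowered its target in every library of its own groups: SMARCA4 stood at 2.13 to 5.93 CPM (fragment counts divided by the library total, here not scaled further) against 55.8 or more elsewhere, CBX3 at 2.94 to 6.94 CPM against 230.2 or more, and FOXA1 at 48.9 to 68.7 CPM against 148.8 or more. The luminal markers ESR1, PGR and GATA3 were present in all 16 libraries, at 71.7 CPM or more. Basal KRT5 and KRT14, leukocyte PTPRC, CD3E and CD68 and endothelial VWF and CDH5 stayed at or below 1.90 CPM, whereas basal TP63 ran from 0.0371 to 7.13 CPM, mesenchymal VIM was at 1.91 to 6.6 CPM and COL1A1 at 23.7 to 58.6 CPM. The file headers record 1 counting thread for si-CBX3 and si-FOXA1 and 8 threads for si-control and si-BRG1. Program version, strand setting and annotation release were the same in all 16. Effects of anything else that went with this split and of the CBX3 and FOXA1 knockdowns cannot be told apart in comparisons with si-control. Replicates of every group differed by more than counting noise, with a chi-square per degree of freedom of 4.22 to 57.1, and the widest gap was between the 2 si-BRG1 6 h libraries.

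Promoters of genes whose 5′ end lay inside a kept peak are shown for the 3 largest hormone rises and the 3 largest hormone falls among the named genes matched in the RefSeq promoter table, because the expression results turn on genes of this kind. CEBPD and RNF152, which rank among them by size of change, are named only. Each sequence is the 250 bases before the RefSeq start on the coding strand, 5′ to 3′, from GRCh38.p14, whereas all peak and gene positions elsewhere are hg19. The regions are chr6:157380940-157381189, plus strand (ZDHHC14), chr1:40862364-40862613, minus strand (CITED4), chr9:129178262-129178511, minus strand (IER5L), chr3:133573436-133573685, plus strand (CDV3), chr18:23134314-23134563, plus strand (CABLES1) and chr2:98936226-98936475, minus strand (CRACDL). ZDHHC14, CITED4 and IER5L rose with hormone, and CDV3, CABLES1 and CRACDL fell. Capitals mark every match to the 7 searched motifs on either strand, and in these 6 promoters only the GC box GGGCGG and the NF-Y letters CCAAT were found.
ZDHHC14: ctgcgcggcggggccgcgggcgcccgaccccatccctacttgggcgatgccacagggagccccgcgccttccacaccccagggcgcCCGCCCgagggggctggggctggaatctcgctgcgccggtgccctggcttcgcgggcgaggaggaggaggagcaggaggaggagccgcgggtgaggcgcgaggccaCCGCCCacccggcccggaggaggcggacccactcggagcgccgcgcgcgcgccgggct
CITED4: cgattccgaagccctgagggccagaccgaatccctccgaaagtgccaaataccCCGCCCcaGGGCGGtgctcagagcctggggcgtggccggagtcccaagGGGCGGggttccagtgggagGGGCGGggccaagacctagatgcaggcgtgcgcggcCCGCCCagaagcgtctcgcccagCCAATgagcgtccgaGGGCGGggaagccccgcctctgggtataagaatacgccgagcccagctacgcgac
IER5L: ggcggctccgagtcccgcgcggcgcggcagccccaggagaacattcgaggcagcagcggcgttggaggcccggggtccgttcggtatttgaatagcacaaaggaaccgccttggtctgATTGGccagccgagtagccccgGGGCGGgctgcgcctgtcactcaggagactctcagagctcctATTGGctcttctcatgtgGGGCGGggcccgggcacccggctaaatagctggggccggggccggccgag
CDV3: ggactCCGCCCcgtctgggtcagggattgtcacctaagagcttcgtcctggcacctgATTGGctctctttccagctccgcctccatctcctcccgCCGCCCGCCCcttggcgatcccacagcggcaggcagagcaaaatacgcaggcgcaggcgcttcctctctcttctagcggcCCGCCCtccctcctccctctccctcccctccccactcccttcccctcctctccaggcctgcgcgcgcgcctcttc
CABLES1: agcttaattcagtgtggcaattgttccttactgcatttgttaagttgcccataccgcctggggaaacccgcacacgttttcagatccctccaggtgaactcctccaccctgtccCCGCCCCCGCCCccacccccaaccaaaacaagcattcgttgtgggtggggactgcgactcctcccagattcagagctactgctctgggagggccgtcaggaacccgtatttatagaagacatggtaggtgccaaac
CRACDL: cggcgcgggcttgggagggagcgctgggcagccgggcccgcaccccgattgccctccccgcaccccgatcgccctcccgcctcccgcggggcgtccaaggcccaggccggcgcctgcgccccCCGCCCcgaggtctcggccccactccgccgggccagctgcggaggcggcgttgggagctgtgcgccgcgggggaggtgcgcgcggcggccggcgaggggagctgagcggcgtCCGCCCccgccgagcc

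A GC box was present in each of these 6 promoters, which held 55.2 to 83.2% G and C. The 7 motifs were an inverted-repeat steroid receptor element with a spacer of 3 bases, TGANTCA for AP-1, TGTTTAC for forkhead factors, AGATAA for factors of the GATA family, a CTCF core, and GGGCGG and CCAAT, all searched on both strands. Of the 337 genes near kept peaks 178 matched a RefSeq promoter by symbol, and 115 of these (64.6%) held a GC box against 42.3% of all 27305 promoters. NF-Y letters were in 35.4% against 33.0%, AP-1 letters in 2.81% against 6.6%, GATA letters in 3.37% against 9.37% and forkhead letters in 2.25% against 2.98%. The steroid receptor element was in 0 of 178 and in 0.330% of all promoters, and the CTCF core was in 1 of 178 and in 0.344%. Genes near 30 min only peaks gave 68.9% for the GC box, 4.49% for AP-1 and 5.24% for GATA. These letters describe 250-base windows and do not describe the peaks themselves, whose sequence was not used here.

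Kept peaks were wide and had high scores in both lists. The median width was 1892 bp at 30 min and 1866 bp at 0 min, against 1121 bp for 30 min only and 1040 bp for 0 min only peaks. The median score, the authors' own value per peak with a minimum of 50, was 96.7 at 30 min and 70.1 at 0 min, against 68.2 for 30 min only and 59.4 for 0 min only peaks. In the 30 min list 5.31% of the lowest quartile of scores were kept and 22.1% of the highest, and in the 0 min list the shares were 18.2% and 47.9%. By width the shares ran from 3.24% to 23.5% and from 8.74% to 51.0%. Wider peaks overlap more readily by construction, and within the highest score quartile of the 30 min list 24.3% of peaks at or above the median width and 14.5% of narrower ones were kept. These values belong to the lists that chose the peaks and are given as a description.

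Overlaps were mostly long, but not for all peaks. The median share of the wider peak in a pair was 63.9%, and 492 of the 684 kept peaks had an overlap of at least 50% of both peaks. The shared stretch had a median of 1327 bp and ran from 4 to 6576 bp, the centres of a pair lay a median of 366 bp apart, and in 287 of 700 pairs 1 peak lay wholly inside the other. The score was higher at 30 min in 482 pairs (68.9%), with a median ratio of 1.33, although scores from separate lists need not be on 1 scale. Across the 700 pairs Spearman's rho was 0.116 for scores and 0.676 for widths, as a description of pairs from the same 2 libraries. At the edge of the rule, the 3 shortest overlaps were 4, 15 and 16 bp, with 30 min scores of 75.7, 61.6 and 75.8, and the 3 nearest peaks outside it lay 19, 31 and 31 bp from a 0 min peak, with 30 min scores of 105.0, 75.4 and 127.6.

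**Figure D1:**
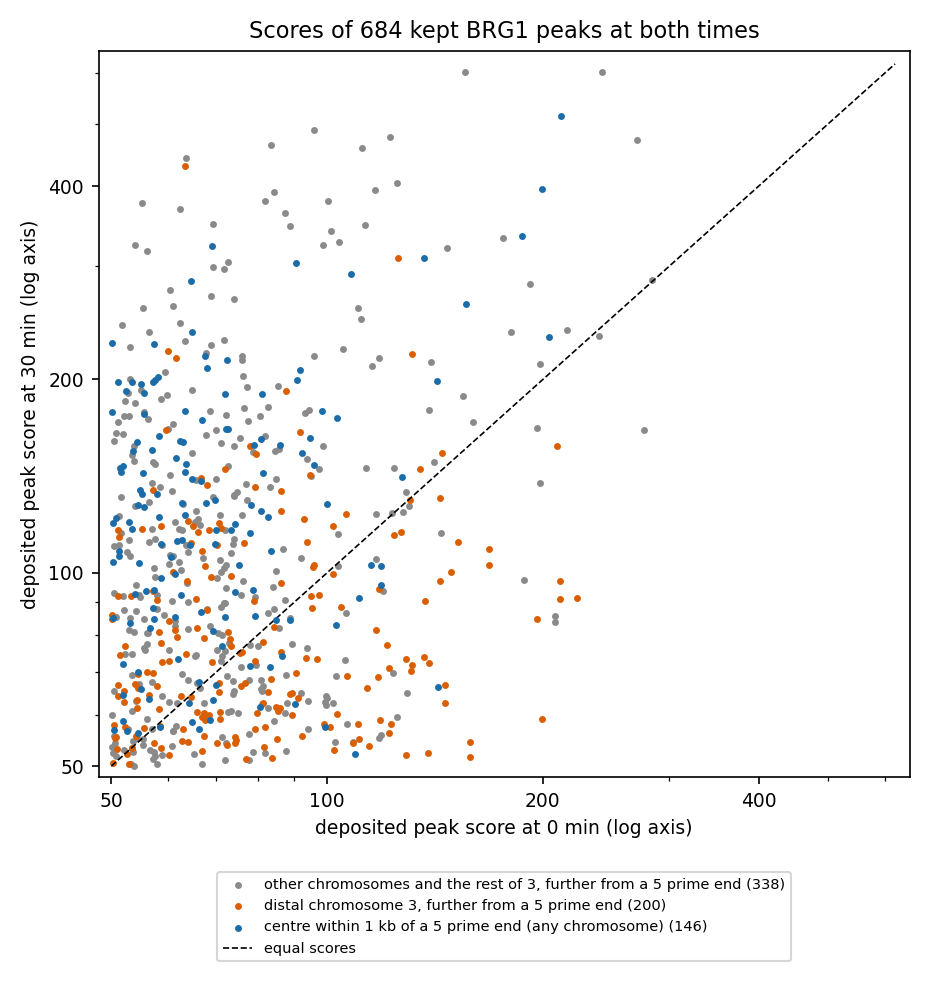
Deposited score of each of the 684 kept BRG1 peaks at 0 min (horizontal, log axis) and 30 min (vertical, log axis), taking the 0 min peak with the longest overlap. Blue points have a centre within 1 kb of a gene's 5 prime end and orange points lie on distal chromosome 3; most blue points sit above the dashed line of equal scores, where 125 of 147 promoter pairs were higher at 30 min.

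By the peak centre 146 kept peaks (21.3%) lay within 1 kb of a gene's 5′ end, 31 (4.53%) in an exon, 335 (49.0%) in an intron and 172 (25.1%) between genes. The same windows hold 3.54%, 3.23%, 47.3% and 45.9% of the bases of the chromosomes. The promoter share of 30 min only peaks was close by, at 19.1%, whereas it was 3.83% among 0 min only peaks. Taken by region, kept and 30 min only peaks were less alike. On chromosome 3 from 160 Mb, 1.96% of kept and 7.26% of 30 min only peaks were at promoters. Elsewhere the shares were 29.6% and 20.1%. Seen from the 0 min list, 137 of 199 promoter peaks (68.8%) were kept, against 32.9% in exons, 27.4% in introns and 21.5% between genes. Kept promoter peaks had a median score of 122.2 at 30 min and 64.8 at 0 min, and kept peaks between genes had 80.5 and 74.1.

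**Figure D2:**
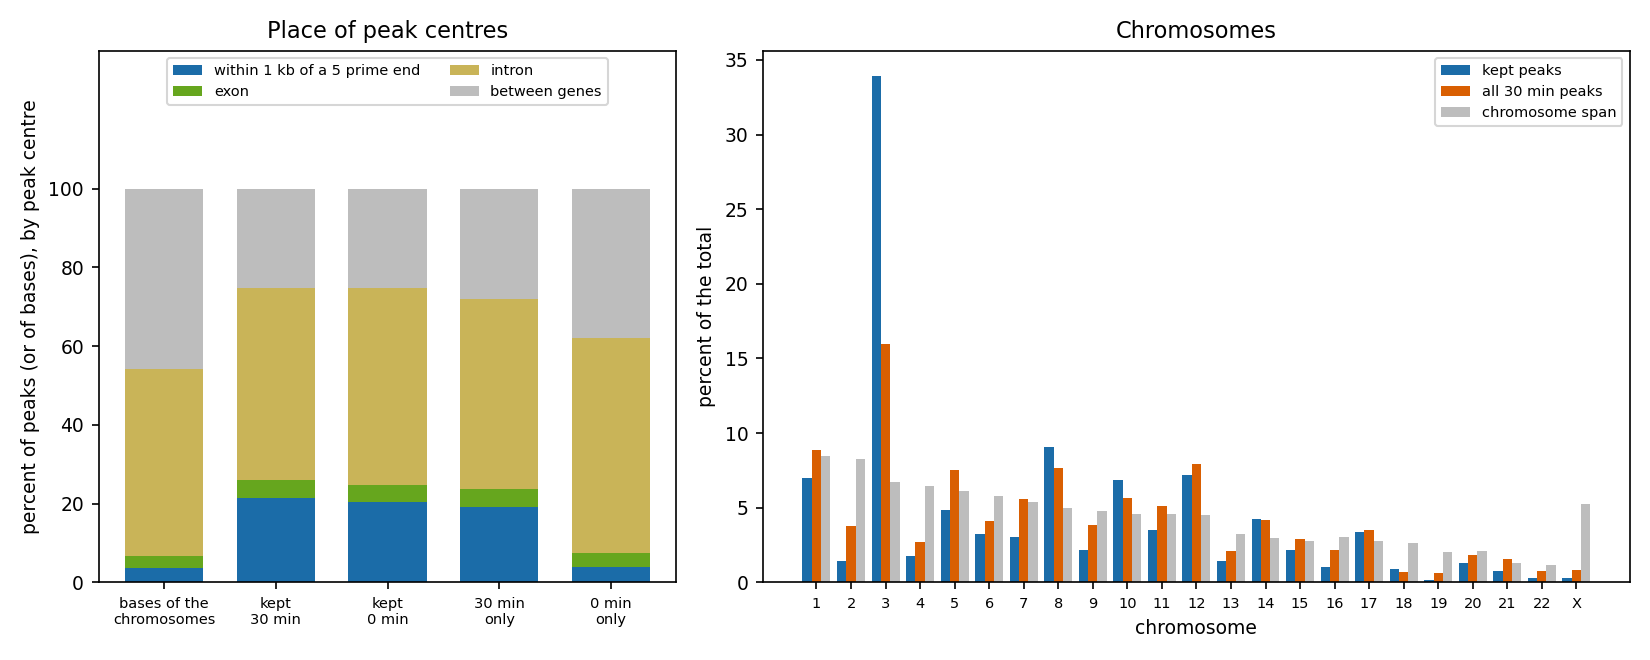
Left, place of peak centres as percent of peaks in each set, with the percent of chromosome bases in the first bar; the blue promoter share is 21.3% for kept peaks listed at 30 min and 3.83% for 0 min only peaks. Right, percent of kept peaks, of all 30 min peaks and of chromosome span on each chromosome, where chromosome 3 holds 33.9% of kept peaks.

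Chromosome 3 held 232 of the 684 kept peaks (33.9%), with 6.71% of the chromosome span. Its distal part from 160 Mb held 204 of them (29.8%), and the 5 Mb windows chr3:175000001-180000000 and chr3:170000001-175000000 held 60 and 56. In this region the lists were of nearly equal length, 577 peaks at 0 min and 631 at 30 min (ratio 1.09), whereas elsewhere they were 1711 and 5549 (ratio 3.24). There 32.3% of the 30 min peaks were kept, against 8.65% elsewhere, whereas of the 0 min peaks 33.8% were kept there and 27.6% elsewhere. Kept peaks of distal chromosome 3 had a median width of 2622 bp and a median score of 73.2, against 1617 bp and 111.4 elsewhere, and 1.96% of them were at promoters, against 29.6%. The score was higher at 30 min in 102 of 212 pairs there and in 380 of 488 pairs elsewhere. Only 22 of these 204 peaks had a gene's 5′ end within 5 kb, so the expression results rest mostly on the 213 such peaks elsewhere. The region was singled out after its peaks were seen. No input library or DNA copy number was used here, so its peak numbers, widths and scores are not corrected for how many copies of the region the cells carry, whose part in these values was not tested.

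The highest-scoring kept peaks clustered around TRPS1, a GATA-type zinc finger repressor of luminal breast cells. The peak over its 5′ end, chr8:116815603-116822563, was 6961 bp wide and had the second highest score of the whole 30 min list, 602.2, against 155.6 at 0 min. It belonged to a run of 9 kept peaks over 189 kb, chr8:116812014-117000843, reaching upstream of the gene, and a run of 6 over 68.9 kb, chr8:116638250-116707197, lay inside the gene body. Other peaks of this cluster were among the 8 highest-scoring kept peaks: chr8:116871103-116875242 scored 477.4 (122.2 at 0 min), chr8:116703244-116707197 scored 472.0 (270.9) and chr8:116677485-116683153 scored 463.5 (83.6). Peak numbers and scores of this cluster, too, are not corrected for an input library or DNA copy number, whose part was not tested. In all, 134 kept peaks lay in 30 runs of 3 or more, with gaps of at most 50 kb, and 446 stood alone.

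The other 4 of these 8 lay on 4 other chromosomes. MED13L, which encodes a subunit of the Mediator kinase module, had a peak over its 5′ end, chr12:116709192-116716837, with a score of 601.7 (241.6 at 0 min). TBL1XR1, a subunit of the NCOR co-repressor complex on distal chromosome 3, had one at chr3:176911284-176917859 with 514.0 (211.7) and it lay wholly inside its 0 min partner, the longest overlap of all pairs at 6576 bp. The remaining ones, chr7:12980252-12983672 (490.0 and 95.9) and chr5:147523856-147529313 (458.7 and 111.7), lay between genes. High 0 min scores among kept peaks not yet named were those of chr8:116908333-116911145 upstream of TRPS1 (283.9 at 0 min and 285.4 at 30 min), chr3:85318195-85320646 in an intron of CADM2 (276.6 and 166.8), chr10:9229549-9231374 between genes (239.7 and 234.0) and chr3:174282665-174286167 in an intron of NAALADL2 (223.1 and 91.5).

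A gene was counted with a kept peak when its 5′ end lay within 5 kb of it. This held for 337 genes at 235 kept peaks, and for 209 of them the 5′ end was inside the peak. After the filter on low counts 241 were tested, 96 were not, and 24 of the latter had no fragment in any siRNA library. Tested members were expressed above the usual level: the median in si-control at 0 h was 6.39 CPM per kb of exon, against 2.21 over all 18806 tested genes and 5.14 for genes near 30 min only peaks. Higher levels make changes easier to call, so shares are also given for genes with a mean log2 CPM of at least 3, which 180 members and 9997 genes in all passed. Values for single genes are CPM scaled by TMM, log2 fold changes with a standard error (SE), and adjusted p, n = 2 per group. The adjusted p is from edgeR's quasi-likelihood test with Benjamini-Hochberg adjustment over all tested genes. The SE was derived from that test, as the absolute log2 fold change divided by the square root of the F statistic. It is not the spread of the 2 libraries alone. Genes named for the size of a hormone or knockdown change had to have groups that did not overlap, so this property holds by choice. It was not required of genes named for a difference between hormone responses.

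Under si-control, hormone lowered more genes at kept peaks than it raised. Of the 241 tested, 43 rose and 76 fell. Over all tested genes 37.6% were called, 19.5% higher and 18.1% lower, against 49.4%, 17.8% and 31.5% of the members. With the level limit, 23.3% of members rose and 35.6% fell, against 27.3% and 22.1% of all genes. Genes near 30 min only peaks were called higher in 27.9% and lower in 25.1% of 1694, and with the level limit in 34.3% and 29.8%. Of the genes tested near 0 min only peaks, 11 (10.9%) were called higher and 34 (33.7%) lower. Outside distal chromosome 3 the members gave 42 rises and 72 falls. No test of the difference between these sets was made, and at least 2-fold changes were balanced, with 15 rises (6.22%, against 5.39% of all genes) and 15 falls (6.22%, against 4.17%).

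Among the genes that rose were 3 of the 26 progestin- and glucocorticoid-induced genes, CEBPD, BCL6 and NFKBIA, which were the only genes of that list with a kept peak. Over the whole list 22 rose and 1 fell. CEBPD, a bZIP transcription factor, went from 3.78 and 3.49 CPM at 0 h to 22.8 and 35.3 CPM at 6 h under si-control, a rise of 7.98-fold (SE 0.18 on the log2 scale, edgeR adjusted p = 6.58e-10). Its kept peak, chr8:48647245-48651960, covered the whole gene and scored 391.0 at 30 min against 84.2 at 0 min. BCL6, a zinc finger repressor, went from 49.4 and 42.4 to 90.5 and 80.4 CPM (log2 0.89, SE 0.09), beneath a 7147 bp peak with scores of 430.7 and 63.3. NFKBIA, which holds NF-kB in the cytoplasm, went from 72.1 and 69.6 to 215 and 222 CPM (log2 1.63, SE 0.07).

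ZDHHC14, a protein palmitoyltransferase, went from 1.51 and 1.33 to 12.03 and 11.3 CPM, the largest called rise of all members (log2 3.04, SE 0.14), at an 802 bp peak with low scores of 57.1 and 66.3. CITED4, a partner of the CBP and p300 co-activators, went from 7.29 and 7.19 to 35.9 and 59.6 CPM (2.72, SE 0.20). IER5L reached 60.3 and 89.4 CPM from 12.9 and 11.1 (2.64, SE 0.17). The 2 replicates of CITED4, IER5L and CEBPD at 6 h lay apart under si-control. ANKRD22 rose by 2.23 (SE 0.08), the dynein light chain gene DYNLL1 by 1.95 (SE 0.09) and the transcription factor gene SOX4 by 1.70 (SE 0.12) on the log2 scale. In cells without siRNA, with 1 library per time, the direction was the same for each of these genes: for example CEBPD was at 1.57 and 10.8 RPKM (reads scaled by transcript length and library size) and NFKBIA at 20.8 and 125.2.

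Among members with a mean log2 CPM of at least 3 the largest fall was of LIN28A, an RNA-binding protein that blocks maturation of let-7 microRNAs. It went from 10.3 and 7.55 CPM at 0 h to 1.57 and 1.63 CPM at 6 h (log2 -2.48, SE 0.23, edgeR adjusted p = 1.8e-07). Its kept peak, chr1:26734880-26735483, lay 1786 bp from the 5′ end, was 604 bp wide and scored lower at 30 min (60.4) than at 0 min (87.2). RNF152, a lysosomal ubiquitin ligase, went from 81.8 and 90.7 to 28.6 and 21.7 CPM (-1.78, SE 0.14). CDV3 went from 616 and 541 to 200.1 and 207 CPM (-1.51, SE 0.11). CABLES1, an adaptor between cyclin-dependent kinases and the ABL kinase, went from 88.4 and 87.6 to 31.3 and 32.1 CPM (-1.47, SE 0.07). CRACDL (-1.38), the transcription co-regulator ZMIZ1 (-1.21), the secreted semaphorin SEMA3C (-1.19) and the mRNA decapping enzyme DCP2 (-1.09) completed the 8 largest falls. Without siRNA 6 of them were lower at 6 h, but DCP2 was level (19.5 and 20.1 RPKM) and CABLES1 went the other way, from 3.54 to 6.77 RPKM.

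**Figure D3:**
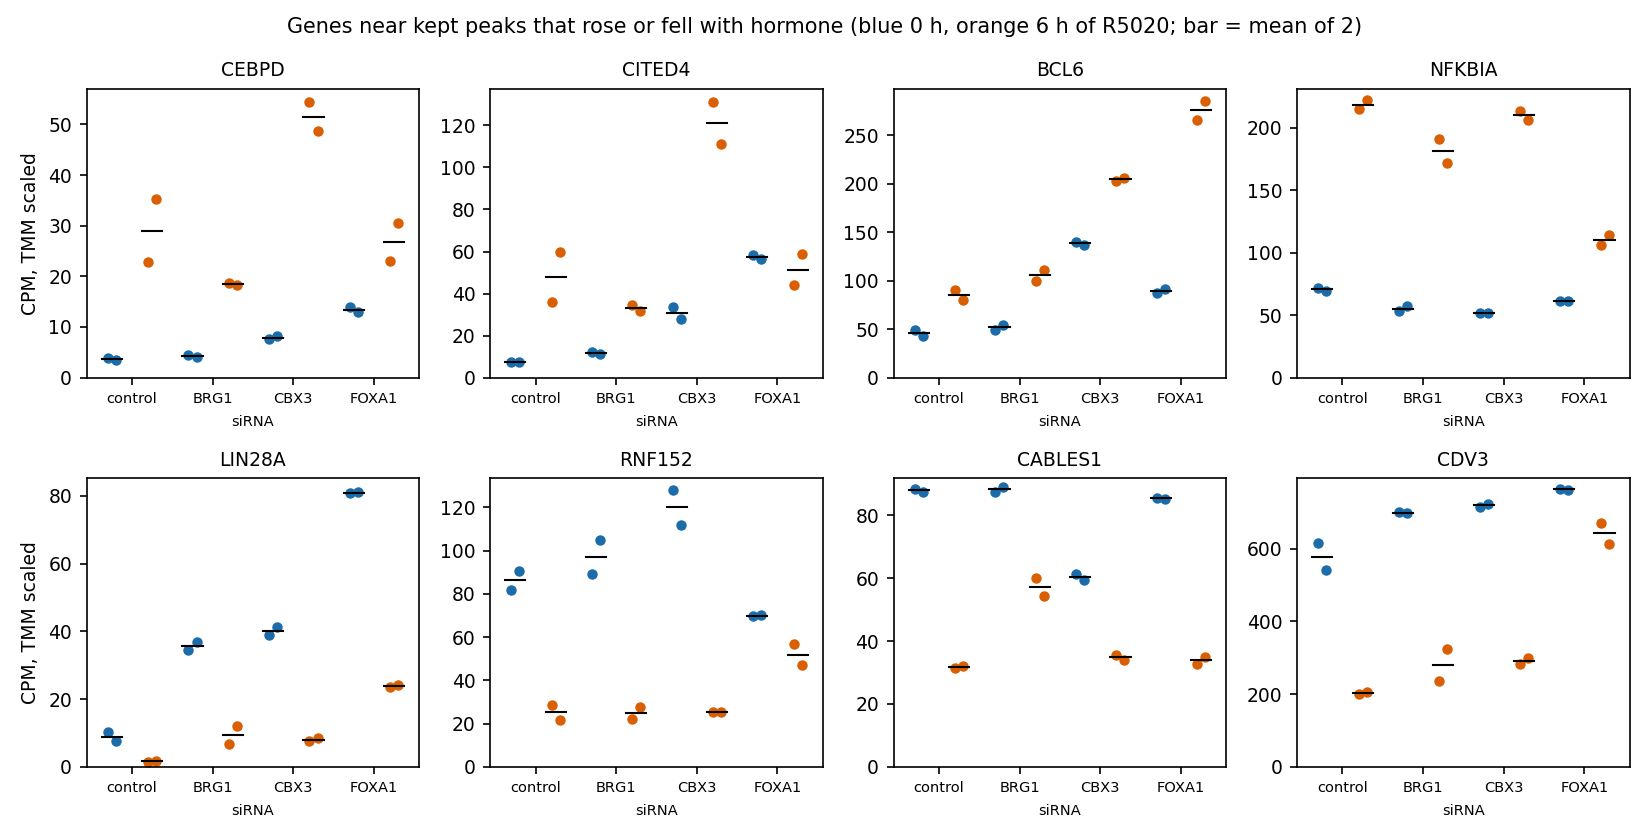
CPM scaled by TMM in each of the 16 siRNA libraries for 4 genes near kept peaks that rose with hormone under si-control (top) and 4 that fell (bottom); blue points are 0 h, orange points 6 h and bars are means of 2. LIN28A at 0 h is lowest under si-control, at 10.3 and 7.55 CPM, and highest under si-FOXA1, at 80.7 and 81.2 CPM.

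All 5 luminal identity genes with a kept peak, of 24 on that list, fell with hormone under si-control, and over the whole list 16 fell and 2 rose. TRPS1 went from 767 and 792 to 645 and 598 CPM (-0.33, SE 0.07), a small change at one of the highest-scoring peaks. TFAP2A, a TFAP2 family transcription factor, went from 69.2 and 68.7 to 46.0 and 38.6 CPM (-0.71, SE 0.14), and its relative TFAP2C from 58.7 and 53.5 to 35.5 and 36.9 CPM (-0.63, SE 0.07). The receptor tyrosine kinase gene ERBB3 went from 740 and 653 to 517 and 492 CPM (-0.46, SE 0.07), and the T-box repressor gene TBX3 from 18.7 and 17.3 to 12.8 and 14.8 CPM (-0.39, SE 0.10). Without si-control 6 h replicate 1 the TBX3 call was lost, at -0.30.

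Of 32 immediate-early genes 3 had a kept peak and all 3 rose under si-control: FOSL2, an AP-1 subunit (1.26, SE 0.07), MYC (0.67, SE 0.08) and IER5 (0.41, SE 0.09), the last of which lost its call without si-control 6 h replicate 2, at 0.23. Over that list 19 rose and 4 fell. Of 24 oestrogen receptor targets MYC and NRIP1, a nuclear receptor co-repressor, had a kept peak, and NRIP1 fell (-0.37, SE 0.08). Of 24 SWI/SNF subunits ARID1A and ARID2 had one: ARID2 fell slightly (-0.21, SE 0.08), a call that 3 alternatives removed, and ARID1A did not pass (-0.17, SE 0.24). Of 19 HP1 proteins and partners CBX3 itself and RCOR1, the CoREST scaffold, had one, and RCOR1 rose (0.39, SE 0.06). No member was among 7 linker histones, 31 interferon-stimulated genes, 27 cell cycle genes or 79 ribosomal protein genes.

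Under si-CBX3, too, falls outnumbered rises, whereas under si-BRG1 and si-FOXA1 the counts were about equal; whether this balance differs between siRNAs was not tested. Under si-CBX3 55 members rose and 88 fell (59.3% called, against 41% of all genes, with 20.4% higher and 20.5% lower), and with the level limit 28.9% rose and 40.0% fell, against 29.4% and 22.1% of all genes. Under si-BRG1 58 rose and 62 fell (49.8% called, against 35.7%, with 18.6% higher and 17.1% lower), and with the limit 29.4% and 28.9%, against 25.6% and 19.7%. Under si-FOXA1 66 rose and 68 fell (55.6% called, against 38.8%, with 19.1% higher and 19.6% lower), and with the limit 33.9% and 29.4%, against 23.7% and 24.8%. CITED4 was at 58.2 and 56.5 CPM at 0 h and 43.8 and 58.8 CPM at 6 h under si-FOXA1, where it did not pass (-0.16, SE 0.17). TFAP2A rose there (0.55, SE 0.14) while it fell under si-control, si-BRG1 and si-CBX3. MYC rose under si-control and si-BRG1 and fell under si-CBX3 (-0.53) and si-FOXA1 (-0.81). DCP2 fell under si-control and rose under si-FOXA1 (0.56, SE 0.13).

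In cells without siRNA, 24 of 271 members with a value above 0 were at least 2-fold higher at 6 h and 8 at least 2-fold lower, on the log2(RPKM + 1) scale. That is 8.86% higher and 2.95% lower, 11.8% in all, against 5.06% of all 31876 genes, 3.74% higher and 1.32% lower. At this cut rises outnumbered falls among members, as they did among all genes. Under si-control, by contrast, 43 members were called higher and 76 lower, and called changes of at least 2-fold numbered 15 each way. Genes near 30 min only peaks gave 13.0%. A gene that stays near 0 RPKM cannot pass 2-fold on this scale, and members had higher levels. Of genes above 0 at 0 h, the median was 4.03 RPKM for members and 0.603 RPKM over all genes. Among genes tested in the siRNA libraries, 14.2% of 218 members passed, against 7.82% of 17299 genes. With 1 library per time there was no test.

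**Figure D4:**
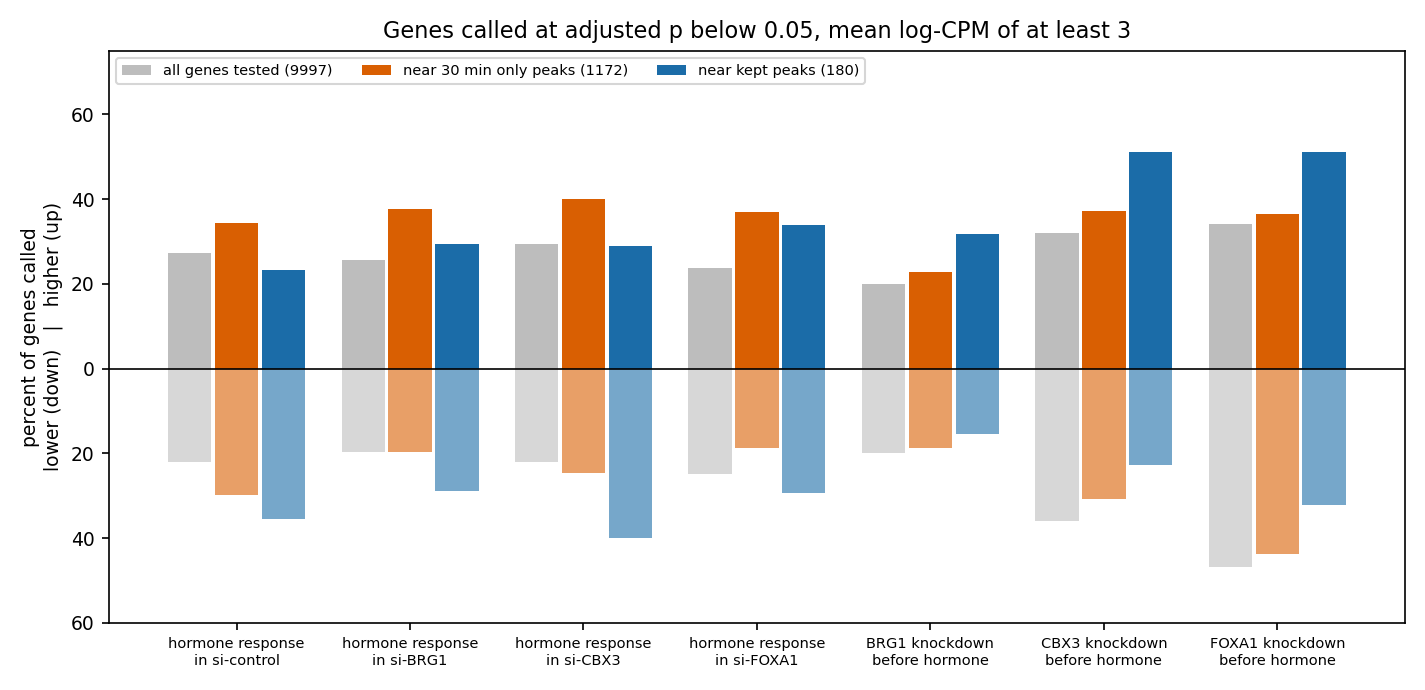
Percent of genes called higher (upward, dark) and lower (downward, pale) at an adjusted p below 0.05 in each comparison, among genes with a mean log2 CPM of at least 3, for all genes tested, genes near 30 min only peaks and genes near kept peaks. Genes near kept peaks are called higher in 51.1% under the CBX3 and FOXA1 knockdowns, against 32% and 34.1% of all genes.

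Before hormone, more genes at kept peaks rose than fell under each knockdown. With BRG1 knocked down 67 of 241 members rose and 31 fell. Over all genes 28.5% were called, 15.1% higher and 13.4% lower, against 40.7%, 27.8% and 12.9% of the members. With the level limit the members gave 31.7% higher and 15.6% lower, against 20% and 19.8% of all genes. With DESeq2-type size factors in place of TMM the members gave 59 rises and 38 falls, a smaller margin in the same direction. For genes whose 5′ end lay inside the peak, 56 of 181 rose and 17 fell. Without si-BRG1 0 h replicate 2 the share of members called was 27.05%, with 43 rises and 23 falls, against 16.8% of all genes.

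Among members with a mean log2 CPM of at least 3, LIN28A led the rises under BRG1 knockdown, from 10.3 and 7.55 CPM in si-control to 34.4 and 36.7 CPM in si-BRG1, both at 0 h (3.97-fold, log2 1.99, SE 0.18, edgeR adjusted p = 9.95e-07). KCNC1, a voltage-gated potassium channel gene, went from 9.19 and 8.63 to 18.4 and 20.3 CPM (1.12, SE 0.11). PDE7A, a cAMP phosphodiesterase gene, went from 45.2 and 44.8 to 80.2 and 80.2 CPM (0.83, SE 0.07). SOGA1 (0.90, SE 0.19) and the connexin gene GJC1 (0.86, SE 0.21) were the other named rises, and GJC1 lost its call without si-BRG1 0 h replicate 2, at 0.72. TRPS1 rose to 1214 and 1252 CPM (0.66, SE 0.07), with TFAP2A (0.43), TFAP2C (0.37) and ERBB3 (0.23), so 4 of the 5 luminal genes with a kept peak rose, and over the whole luminal list 9 of 24 rose and 1 fell.

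Fewer members fell with BRG1 knocked down. TM4SF18-AS1, an antisense RNA gene, fell from 95.7 and 77.4 to 35.2 and 32.6 CPM (-1.35, SE 0.10). LYPLA1, a depalmitoylating thioesterase gene, fell by 0.81 (SE 0.16), although its 2 si-control 0 h libraries differed, at 457 and 768 CPM. The calponin gene CNN3 (-0.72, SE 0.07), SEMA3C (-0.70, SE 0.08) and ANKRD22 (-0.64, SE 0.07) followed. SEMA3C fell from 466 and 526 to 306 and 304 CPM.

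CBX3 knockdown before hormone raised 112 members and lowered 50. Over all genes 54.1% were called, 28.1% higher and 26% lower, against 67.2%, 46.5% and 20.7% of the members. With the level limit the members gave 51.1% and 22.8%, against 32% and 36%, so more were higher than lower among members and fewer among all genes. CBX3 itself lies under a kept peak, chr7:26240516-26242544, and fell from 242 and 266 to 6.80 and 6.37 CPM (38.6-fold), as the target of the siRNA. LIN28A rose to 39.0 and 41.1 CPM (2.16, SE 0.18) and CITED4 to 33.8 and 27.8 CPM (2.09, SE 0.19). KCNC1 (1.81), BCL6 (1.59) and TFAP2A (1.58) were the next rises above the level limit. BCL6 went from 49.4 and 42.4 to 140 and 137 CPM. The largest falls besides CBX3 were, with the same limit, TM4SF18-AS1 (-1.72), the receptor phosphatase gene PTPRJ (-1.14), the RNA-binding gene SAMD4A (-1.06) and CNN3 (-0.86).

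FOXA1 knockdown before hormone raised 124 members and lowered 70. Over all genes 73.5% were called, 40% higher and 33.5% lower, against 80.5%, 51.5% and 29.0% of the members. With the level limit the members gave 51.1% and 32.2%, against 34.1% and 46.8%. LIN28A again led, at 80.7 and 81.2 CPM (9.04-fold, log2 3.18, SE 0.18). MYC went from 17.7 and 16.2 to 118 and 132 CPM (2.88, SE 0.08), and CITED4 (2.99), AUTS2 (2.47) and the co-repressor gene SPEN (2.37) rose too. TM4SF18-AS1 fell to 2.90 and 2.47 CPM (32.2-fold, log2 -5.01, SE 0.13). ANKRD22 (-3.16), the glycosyltransferase gene GALNT7 (-2.78), CNN3 (-2.67) and the neuroserpin gene SERPINI1 (-2.62) also fell. The 3 knockdowns share the si-control libraries, so that a low or high value there enters all 3 comparisons.

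**Figure D5:**
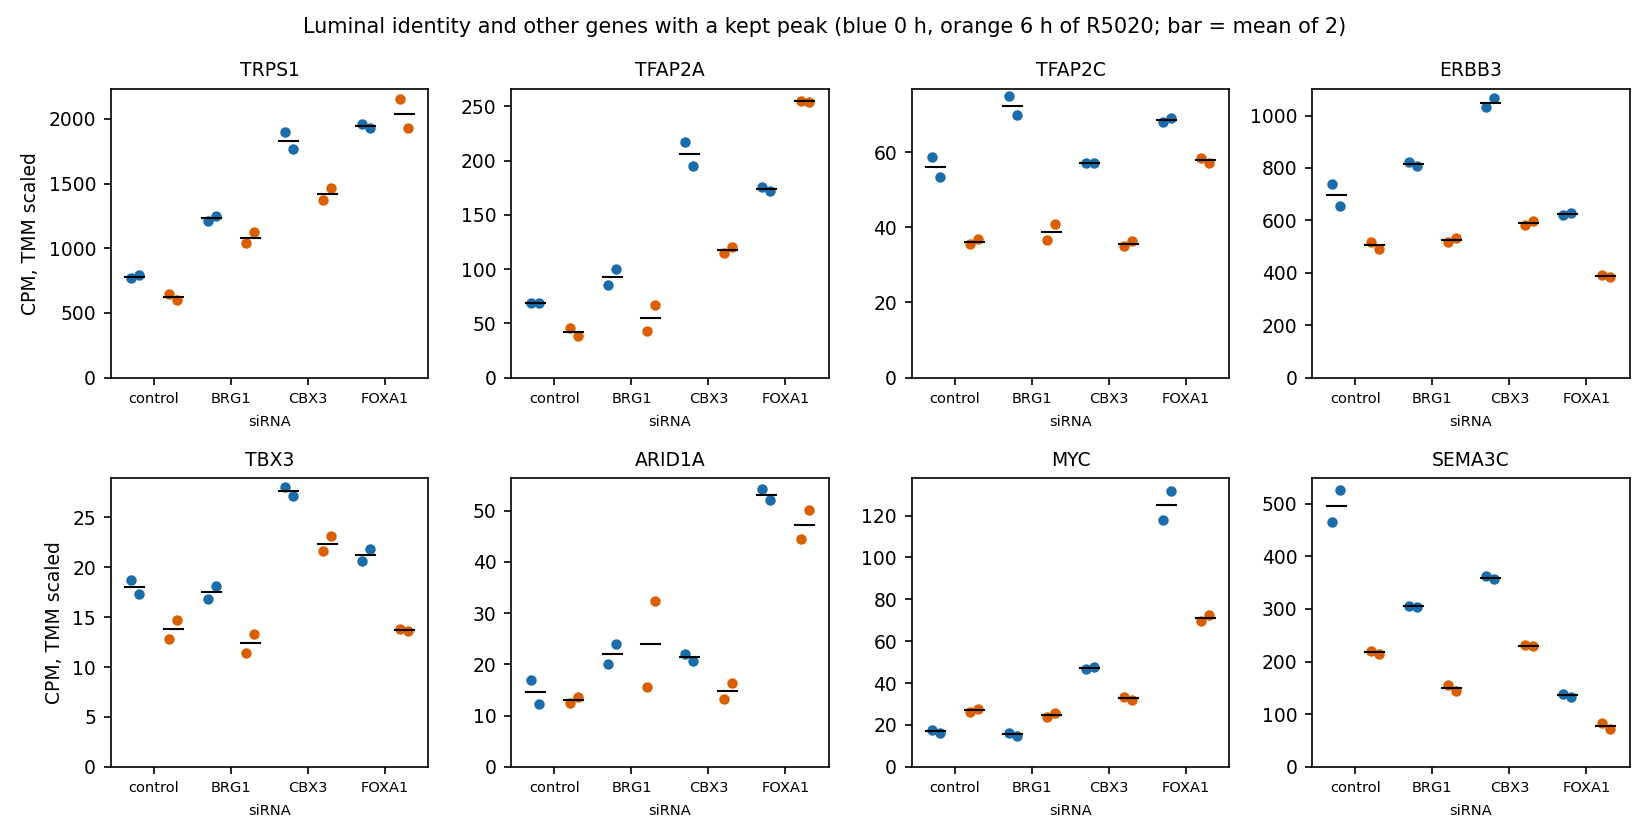
CPM scaled by TMM in each of the 16 siRNA libraries for the 5 luminal identity genes with a kept peak and for ARID1A, MYC and SEMA3C; blue points are 0 h, orange points 6 h and bars are means of 2. TRPS1 at 0 h is lowest under si-control, at 767 and 792 CPM, and SEMA3C at 0 h is highest there, at 466 and 526 CPM.

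BRG1 knockdown changed the hormone response itself at few of these genes. The difference of the si-BRG1 and si-control responses was called for 17 members, 6 higher and 11 lower (7.05%, against 5.22% of all genes, with 1.49% higher and 3.72% lower), a share near the background. The count rested on single libraries: it was 0.820% without si-BRG1 0 h replicate 1 or without si-control 6 h replicate 2, 1.64% without si-control 0 h replicate 2, 3.69% without si-BRG1 0 h replicate 2, 11.1% without si-BRG1 6 h replicate 2 and 21.3% without si-BRG1 6 h replicate 1, where 34 were higher and 18 lower. Without si-control 0 h replicate 1 the share was 7.79%, but 15 were higher and 4 lower. Over all genes the share moved between 0.750% and 14.5% in the same fits. CABLES1 had the largest positive difference above the level limit: it fell from 88.4 and 87.6 to 31.3 and 32.1 CPM under si-control and from 87.5 and 88.9 to 59.9 and 54.3 CPM under si-BRG1. That difference was 0.84 (SE 0.10, edgeR adjusted p = 0.000391), and its call held under every alternative run. In cells without siRNA, with 1 library per time, CABLES1 was higher at 6 h, unlike its fall under si-control. CITED4 rose less under si-BRG1, to 34.7 and 31.9 CPM from 12.3 and 11.01, with a difference of -1.21 (SE 0.26, edgeR adjusted p = 0.0171). This call was lost under 4 alternatives, and the difference was -0.77 without si-control 6 h replicate 2. With the level limit 8.89% of members were called, against 8.13% of all genes.

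With all 16 siRNA libraries, differences were called more often for the other knockdowns. Whether the knockdowns differ in this was not tested. Against si-control the CBX3 knockdown changed the response of 40 members, 20 higher and 20 lower (16.6%, against 8.99% of all genes, with 4.63% higher and 4.36% lower). Without si-CBX3 6 h replicate 2 the share was 10.2%. The FOXA1 knockdown changed that of 95, 50 higher and 45 lower (39.4%, against 28.7%, with 13% higher and 15.7% lower), and 26.2% without si-FOXA1 0 h replicate 2 or without si-FOXA1 6 h replicate 1. With the level limit 21.1% and 48.3% of members were called, against 13.5% and 41.1% of all genes, and 20.4% and 47.01% of genes near 30 min only peaks, so that the values of both peak sets lay close together.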

How the data were processed

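RNA-seq fragment counts per gene were deposited by the authors for 16 siRNA libraries: per the file headers, featureCounts 1.4.6-p2 counted fragments with reverse strand against GENCODE 19, build hg19. RPKM values per transcript were deposited for 2 libraries without siRNA and summed per gene. The authors deposited a score per peak for 2 BRG1 ChIP-seq libraries. Peak names carry MACS, the submitters' processing notes list Bowtie 1.0.0 and HOMER, and no source used here gives caller settings or input.

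Peaks were intersected with bedtools 2.31.1. Counts were fitted with edgeR 4.0.16 (quasi-likelihood, TMM, its filter on low counts, 8 groups in 1 fit, 8 residual degrees of freedom), two-sided, with Benjamini-Hochberg adjustment over 18806 genes and calls at an adjusted p below 0.05. The procedure was tested on simulated data. DESeq2 1.42.0, other filters and scalings, leaving out each library and the replicate block were alternatives. The pseudocount for RPKM was 1.

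Same-numbered libraries did not deviate together (r of -0.06 to 0.12 over 28 pairs of groups), so numbers were not taken as pairs. The members and gene lists were chosen with earlier results of these data known. Genes named were the 8 largest rises and falls with hormone and the 5 per knockdown, called, with groups that did not overlap. The 4 of each sign of the BRG1 difference were called genes too, with no limit on overlap of groups. All of these had a mean log2 CPM of at least 3. All list genes with a kept peak were also named. Peaks named were the 8 and 5 highest scores and those at the edge of the rule, of which 1 is not reported here. No genome sequence was used, and promoters came from RefSeq, GRCh38.p14.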

Additional observations from a re-analysis of the deposited data

Results flagged for a closer look

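The hormone response under a knockdown differed from that under si-control, by an interaction term in edgeR, for 17 genes near kept peaks with BRG1 knocked down, 40 with CBX3 and 95 with FOXA1 knocked down. These are 7.05%, 16.6% and 39.4% of the members tested, against 5.22%, 8.99% and 28.7% of all genes. The BRG1 share is near that of all genes and ran from 0.820% to 21.3% when 1 library was left out. For BRG1 the largest differences above the level limit were positive in CABLES1 (0.84), the zinc finger gene ZNF704 (0.56), SERINC5 (0.52) and ZBTB44 (0.48), on the log2 scale. They were negative in CITED4 (-1.21), TLNRD1 (-0.98), the membrane-type metalloproteinase gene MMP17 (-0.76) and CDC42EP1 (-0.58). Of these 8 only CABLES1 kept its call in every alternative run. Those runs used the siRNA libraries only, and the fall of CABLES1 under si-control was not seen without siRNA. There it was higher at 6 h than at 0 h, with 1 library per time. The 3 differences share the si-control libraries, and the wide gap between the 2 si-BRG1 6 h libraries stands beside the BRG1 values, whose part in the result was not tested.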

How the results depend on the processing

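Of 159 alternatives for counts and shares 143 stayed within 1.5 times of the value reported, and 16 moved further. This limit is wide for large shares, which could fall to the share of all genes and stay within it. For hormone under si-control, si-CBX3 and si-FOXA1, every fit without 1 library called a smaller share of members than the full fit. The same held for each knockdown before hormone. Of 662 alternatives for named genes 619 kept direction and call, 43 lost the call and 0 changed direction. The share of members whose hormone response differed under si-BRG1 was 15.5% with DESeq2, 0.433% with only the groups of the comparison fitted, and 4.69% for peaks with both scores at or above the median of their list. Without 1 library it ran from 0.820% to 21.3%, and with the replicate block, as the numbers are no pairs, it was 4.98%, with ZBTB44 the one named call lost. Without 1 library the other shares that moved ran from 27.05% to 33.6% for BRG1 knockdown before hormone, 10.2% to 17.6% for the CBX3 difference and 26.2% to 37.4% for the FOXA1 difference. In all these the cause was not tested. Kept peaks numbered 225 when centres had to lie within 200 bp and 332 with both scores at or above the median, since fewer peaks meet each. With a pseudocount of 0.1 the share past 2-fold without siRNA was 18.8%, against 12.1% of all genes. Outside distal chromosome 3, an alternative chosen after seeing the data, the shares called were 49.8% for hormone under si-control and 41.0% for BRG1 knockdown. With 2 libraries per group and 1 per peak list, precision rests on few samples, and no error can be given for a peak.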
